A study of Mus musculus with 8 samples.

Results

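Cycling CD8 T cells in MC38 tumours were taken as the barcodes of a CD8 T cell gate that held at least 2 UMIs (unique molecular identifiers, each 1 captured RNA molecule) of Mki67 and Top2a together. Of 36011 barcodes in 4 expression libraries, 25936 passed the gate; 3467 of them were cycling and 22469, with at most 1 such UMI, are called resting here. The gate asked for at least 500 detected genes, under 10% mitochondrial UMIs, at least 1 UMI of Cd8a or Cd8b1, at least 1 UMI of Cd3d, Cd3e or Cd3g, no Cd4 UMI and at most 1 UMI of the macrophage genes Lyz2, C1qa, C1qb and C1qc. The cells were thus chosen by their Mki67 and Top2a UMIs, whose values are a description and carry no test.

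A T cell that divides first copies its DNA in S phase and then separates the copies in mitosis. E2F transcription factors switch on the helicase, polymerase and nucleotide genes of S phase. The DREAM and B-MYB-FOXM1 complexes, which bind CHR elements, hold down or switch on the genes of G2 and mitosis. CCAAT boxes, another promoter element, are counted below. Ki-67 coats mitotic chromosomes and topoisomerase II alpha untangles them, so both RNAs are used as marks of division. In tumours, CD8 T cells range from Tcf7-positive cells with naive or memory features to PD-1-positive cells with exhaustion features. IL-7 is a homeostatic cytokine that keeps resting T cells alive and can make them divide.

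All mice were wild-type C57BL/6 bearing tumours of MC38, a mouse colon carcinoma line, and the sex, age and number of mice per library were not given in the sources used here. Experiment 1 set rhIL-7-hyFc, a long-acting IL-7 Fc fusion, injected under the skin at 10 mg/kg, beside buffer; tumours were taken 7 days later and CD8 T cells enriched with magnetic beads. In experiment 2 all groups had rhIL-7-hyFc under the skin at 1.25 mg/kg, with or without TCE, an anti-mPD-L1 and anti-CD3ε bispecific given into the vein from 3 days later (called the combination here), and cells were taken 24 hours after the last treatment by sorting for viable CD45, TCRb and CD8a-positive cells. Each group is 1 library, so differences between treatments have no replicate check, and they were set out within an experiment only; intervals on them are 95% and cover counting error only. Cycling and resting cells were compared across the 4 libraries, so that a p-value measures the spread between these 4 libraries. Values listed by library run in the order rhIL-7-hyFc 10 mg/kg, buffer, combination and rhIL-7-hyFc 1.25 mg/kg.

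The cycling cells numbered 572, 668, 1448 and 779 in these libraries, beside 4864, 2515, 8660 and 6430 resting cells. Their UMIs were summed per library to 9350395 to 18160007 in cycling cells and 20589965 to 57576895 in resting cells, and levels are given as CPM, counts scaled to a common total per sum. From 45 to 195 barcodes were shared between any pair of libraries, and 0 to 4 of these were cycling in both. The limit on macrophage UMIs removed 2.91%, 18.7%, 6.79% and 32.9% of the CD8-positive, CD3-positive and Cd4-negative barcodes. Its reach was thus far wider in the buffer and rhIL-7-hyFc 1.25 mg/kg libraries than in their partners.

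Mki67, Top2a and the CD8 chains chose the cells, so their levels are a description. Mki67 stood at 214, 196, 338 and 327 CPM in cycling cells, against 4.15, 7.67, 8.27 and 6.48 CPM in resting cells. Top2a stood at 406, 419, 363 and 452 CPM in cycling cells, against 10.8, 19.7, 9.90 and 13.6 CPM in resting cells. Both rule genes were detected in 71.5%, 71.3%, 80.0% and 78.9% of cycling cells, with a median of 9, 7, 7 and 7 rule UMIs per cell. Cd8a, the alpha chain of the coreceptor, was measured at 835, 1083, 790.0 and 956 CPM in cycling cells, against 750.1, 1244, 1075 and 1074 CPM in resting cells. The other CD8 chain, Cd8b1, had 1077, 1051, 861 and 913 CPM in cycling cells, against 1251, 1243, 1035 and 1117 CPM in resting cells. Trac and Trbc2, constant genes of the T cell receptor chains that neither the gate nor the cut used, stood at 263, 273, 268 and 274 CPM and 254, 214, 199 and 186 CPM in cycling cells, so the label of T cells held on markers outside the rule.

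Of the 11 lists of markers of other cell types, 8 had a lower highest summed level in cycling than in resting cells, and the neutrophil, fibroblast and erythroid lists had a higher one. Within rhIL-7-hyFc 10 mg/kg, CD4 and regulatory T cell markers (5.37 against 4.79 CPM) and tumour markers (2.83 against 1.84 CPM) rose in cycling cells. Within the combination, B cell markers (6.75 against 6.30 CPM) and gamma delta T cell markers (1.76 against 0.796 CPM) rose. Cd4, Lyz2, C1qa, C1qb and C1qc of these lists were limited by the gate itself. The summed level of the 12 macrophage and monocyte markers ranged from 1809.7 to 2662 CPM in cycling cells and 2681 to 3605 CPM in resting cells, of which Ly6c2, a gene that activated CD8 T cells also express, gave 1787 to 2638 and 2658 to 3485 CPM. B cell markers summed to 2.12 to 6.75 CPM in cycling cells and 4.56 to 10.7 CPM in resting cells, and keratin and Epcam markers of tumour cells to 2.74 to 4.42 and 1.84 to 5.63 CPM. NK cell markers summed to 19.0 to 63.2 CPM in cycling and 39.6 to 86.1 CPM in resting cells, mature dendritic cell markers, mostly Ccr7, to 270.4 to 513 and 524 to 935 CPM, and plasmacytoid dendritic cell markers, mostly Bst2, to 368 to 891 and 496 to 1073 CPM. CD4 and regulatory T cell markers summed to 4.90 to 8.95 and 4.79 to 11.1 CPM, and gamma delta T cell markers to 0.213 to 2.07 and 0.796 to 4.50 CPM. Neutrophil markers summed to 0.0942 to 51.8 CPM in cycling cells and 0.188 to 24.6 CPM in resting cells, fibroblast collagen and decorin markers to 0 to 5.44 and 0.230 to 0.680 CPM, and erythroid markers to 0 to 0.107 and 0 to 0.0346 CPM. The part of these other cells in the results was not tested.

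A small set of barcodes in the buffer library carried RNA of Prl2c2, Rhox5 and Nupr1, genes chosen after their values were seen. In buffer cycling cells 2607 UMIs of these genes were counted, 98.7% of them in 9 barcodes, whose median total was 88167 UMIs and of which 1 had a TCR beta chain. The rhIL-7-hyFc 10 mg/kg cycling cells had 8 such UMIs and no barcode with 5 or more. The combination had 2 such barcodes and rhIL-7-hyFc 1.25 mg/kg had 6. Counts and genes of experiment 1 that moved without these barcodes are given both ways.

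Replication and mitosis RNA had different courses along the number of rule UMIs per cell, read as the summed level of the lists of 49 replication and 58 mitosis genes. In rhIL-7-hyFc 10 mg/kg cells the replication list summed to 995, 1290.0, 1909, 3787, 5657 and 4437 CPM in cells with 0, 1, 2, 3, 4 to 9 and at least 10 rule UMIs. The mitosis list summed to 967, 1127, 1553, 3833, 6797 and 13720 CPM in the same steps. Replication RNA thus peaked at 4 to 9 rule UMIs while mitosis RNA went on climbing, and the same order held in the buffer library (replication 5524 and 4574 CPM, mitosis 6631 and 13834 CPM in the last 2 steps). It also held in the combination library (replication 4989 and 4112 CPM, mitosis 7769.8 and 12458 CPM) and in the rhIL-7-hyFc 1.25 mg/kg library (5023 and 4418 CPM, and 8436 and 13408 CPM). Top2a and Mki67 are themselves genes of late S phase to mitosis.

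Just inside the cut, 145, 149, 263 and 157 cells had exactly 2 rule UMIs, or 25.3%, 22.3%, 18.2% and 20.2% of the cycling cells. Just outside it, 715, 563, 1046 and 764 cells had exactly 1. At 2 rule UMIs the replication list stood at 1909, 3014, 3475 and 2850 CPM, and at 1 rule UMI at 1290.0, 2266, 2036 and 1741 CPM. Cells just outside the cut thus carried more replication RNA than cells with no rule UMI and less than those just inside it, in each library.

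In experiment 1 the share of cycling cells was 10.5% (9.72 to 11.4) of gated cells in the rhIL-7-hyFc 10 mg/kg tumour library and 21.0% (19.6 to 22.4) in buffer, a ratio of 0.501 (0.452 to 0.556). In experiment 2 it was 14.3% (13.6 to 15.0) in the combination and 10.8% (10.1 to 11.5) in rhIL-7-hyFc 1.25 mg/kg, a ratio of 1.33 (1.22 to 1.44). The lower share under 10 mg/kg held under all 10 other definitions of cycling cells, with ratios from 0.456 to 0.612. The experiment 2 difference depended on the gate: without the limit on macrophage UMIs the shares were 15.8% in the combination and 16.8% in rhIL-7-hyFc 1.25 mg/kg, a ratio of 0.941 (0.886 to 1.00). It ranged from 1.08 to 1.81 under the other 9 definitions, the lowest with cells thinned to 5000 UMIs (13.7% in the combination and 12.7% in rhIL-7-hyFc 1.25 mg/kg, interval 0.979 to 1.19) and the highest with each clonotype counted once.

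**Figure D1:**
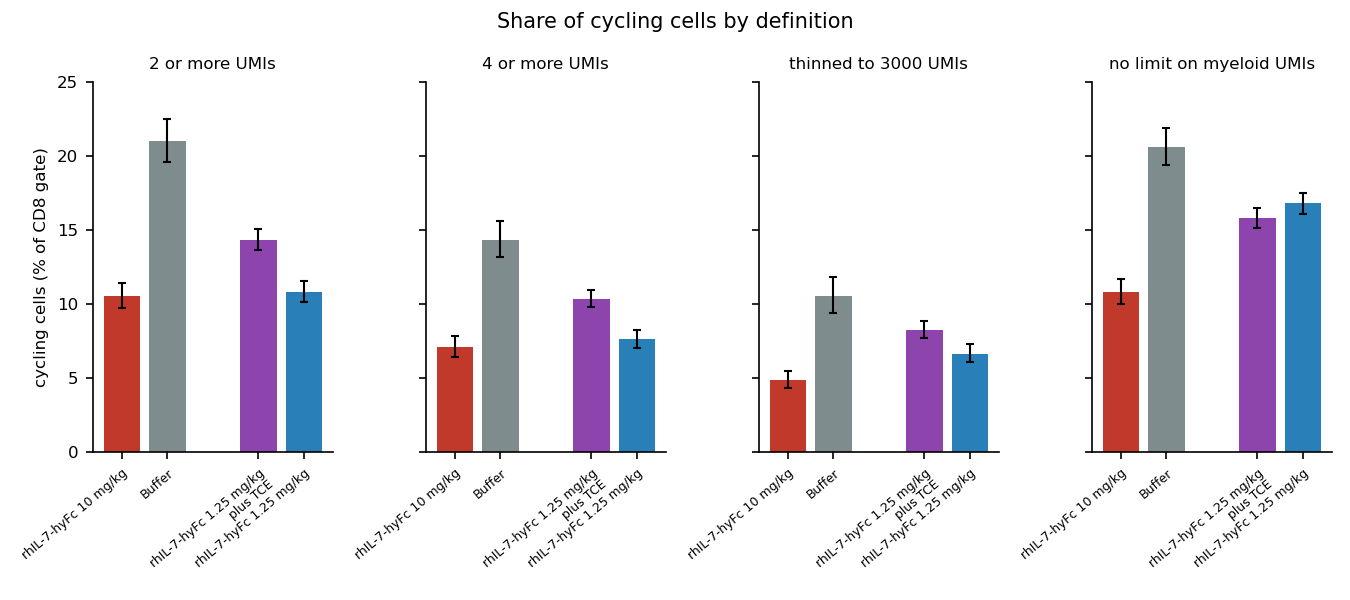
Cycling cells as a percentage of the CD8 gate (y axis) in the 4 libraries, in 4 panels by definition; bars are 1 library each and whiskers are 95% Clopper-Pearson intervals, which cover counting error only. The buffer bar stands highest in all panels, and the order of the experiment 2 bars turns round where the limit on macrophage UMIs is dropped (15.8% in the combination and 16.8% in rhIL-7-hyFc 1.25 mg/kg).

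Gated cells had a median of 9671.5 UMIs in rhIL-7-hyFc 10 mg/kg and 8220.0 in buffer, and 6439 in the combination and 5475 in rhIL-7-hyFc 1.25 mg/kg. With every cell thinned to 3000 UMIs the shares were 4.84% in rhIL-7-hyFc 10 mg/kg and 10.5% in buffer, and 8.24% in the combination and 6.63% in rhIL-7-hyFc 1.25 mg/kg. For barcodes of other cell types, at least 2 rule UMIs were found in 14 of 389 macrophage barcodes without CD3 RNA (3.60%, thinned 1.16%) and in 0 of 65 neutrophil barcodes, which allows a share of up to 4.62%. The share was 16.4% in mature dendritic cell barcodes (19 of 116, thinned 4.63%), 13 of them among the 58 of the rhIL-7-hyFc 1.25 mg/kg library. Over all libraries the CD8 share was 13.4%, or 7.31% thinned. Within libraries the thinned CD8 share of 6.63% in rhIL-7-hyFc 1.25 mg/kg lay below the 7.41% of its mature dendritic cell barcodes (4 of 54), and the 4.84% in rhIL-7-hyFc 10 mg/kg was beside 3.13% of its macrophage barcodes (2 of 64). The 33 barcodes of other cell types with at least 2 rule UMIs carried 3205 CPM of replication and 5670 CPM of mitosis RNA, against 674 and 1315 CPM in the 533 with fewer. Whether they were dividing cells, doublets or cells with free RNA was not tested.

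Cycling cells held more RNA per cell. Their median was 17690, 16595, 11992 and 11185 UMIs per cell, against 9347, 7410.0, 6039 and 5238 in resting cells, which is 1.89, 2.24, 1.99 and 2.14 times as many. The mean difference was 7357 ± 1660 UMIs (SD over 4 libraries), higher in 4 of 4 libraries (exact two-sided paired permutation p = 0.125, the smallest that 4 pairs allow). A cut on raw UMIs favours deep cells, and the part of the rule in this difference was not tested.

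Across all genes, 2764 of 11625 tested (23.8%) were higher and 2616 (22.5%) lower in cycling than in resting cells, by edgeR's quasi-likelihood test with the library as a block and a false discovery rate of 0.05 (Benjamini-Hochberg over all genes tested). The median log2 fold change of all genes was -0.02, and errors below are standard errors. The changes were lopsided in size: 770 genes rose at least 2-fold and 233 fell as far. The 12 genes with the highest fold changes among the well expressed ones were Esco2, Ccna2, Fbxo5, Nusap1, Shcbp1, Cenpf, Ckap2l, Plk1, Hmmr, Ska1, Kif11 and Rrm2, with log2 fold changes from 5.47 to 6.93. Among the 12 lowest were Tcp11l2, Slfn5, Ccl5, Ifit3b, Ifit1, Nsg2, S1pr1, Tcf7, Gzmm, Fam241a and Ifit3, from -2.63 to -1.25. The genes of DNA replication and mitosis belong to the programme that Mki67 and Top2a mark, so their counts serve as a check of the label and not as independent evidence. The count of genes called was smaller with cells thinned to 3000 UMIs (1631 higher and 1416 lower of 9991 tested). It was also smaller with 1 cycling and 1 resting cell per clonotype (1195 and 925 of 7695). Among cells with a Pdcd1 UMI it was 2631 and 2563 of 10966. Within the middle range of the cycling cells' depth it was 2244 and 2048 of 10631. List counts under these settings are to be read beside these totals.

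All 49 tested genes of DNA replication rose, by 1.01 to 4.30 on the log2 scale with a median of 2.03. Clspn, which signals stalled replication forks to the checkpoint, had 71.4, 80.1, 89.9 and 92.5 CPM in cycling cells, against 1.45, 7.58, 5.35 and 4.02 CPM in resting cells (log2 fold change 4.30 ± 0.28, edgeR adjusted p = 3.52e-05). Mcm5, a subunit of the replicative helicase, had 189.6, 204, 173 and 173 CPM in cycling cells, against 25.3, 69.5, 42.0 and 32.9 CPM in resting cells (log2 fold change 2.18 ± 0.18, edgeR adjusted p = 0.000102). In each experiment both cycling levels of Mcm5 lay above both resting levels, and in experiment 1 buffer had the higher resting level. Pcna, the sliding clamp of the polymerases, had 186, 169.9, 288 and 271 CPM in cycling cells, against 50.3, 65.8, 78.2 and 75.6 CPM in resting cells (log2 fold change 1.71 ± 0.09, edgeR adjusted p = 1.49e-05). Its smaller fold came with a resting level of at least 50.3 CPM in every library. Mcm10, a replication factor, and Cdc6, a licensing factor, had log2 fold changes of 4.16 and 4.08.

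Of 26 tested genes of nucleotide synthesis 24 rose and none fell, with a median log2 fold change of 0.96. Rrm2, the regulated subunit of ribonucleotide reductase, had 401, 396, 399.9 and 408 CPM in cycling cells, against 4.74, 18.2, 9.08 and 7.48 CPM in resting cells (log2 fold change 5.47 ± 0.29, edgeR adjusted p = 1.5e-05). Its cycling levels were nearly the same within each experiment, while in experiment 1 its resting level was higher in buffer. Tk1, thymidine kinase of the salvage route, had 182, 202, 167 and 176 CPM in cycling cells, against 6.52, 26.8, 16.1 and 10.7 CPM in resting cells (log2 fold change 3.72 ± 0.27, edgeR adjusted p = 5.49e-05). Tyms, thymidylate synthase, had a log2 fold change of 3.28.

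Histone and chromatin genes followed. Of 20 tested replication-dependent histone genes 19 rose and none fell (median 3.66). Hist1h1b, a linker histone, had 83.5, 115, 515 and 391 CPM in cycling cells, against 1.59, 15.3, 7.31 and 5.72 CPM in resting cells (log2 fold change 5.21 ± 0.58, edgeR adjusted p = 0.000421); experiment 2 lay far above experiment 1, and since the experiments were made with different reference versions this difference was not compared. Histone genes are near-identical copies and their single values are uncertain. All 32 tested genes of chromatin assembly and condensin rose (median 1.79). Hmgb2, a chromatin protein abundant in dividing cells, had 1865, 1666, 1801 and 1690.0 CPM in cycling cells, against 243, 336, 272 and 256 CPM in resting cells (log2 fold change 2.63 ± 0.09, edgeR adjusted p = 3.69e-06). Ncapg, a condensin subunit, and Ezh2, the H3K27 methyltransferase, had log2 fold changes of 4.29 and 2.39. Of 28 genes of DNA repair 18 rose and 1 fell (median 0.68), among them Rad51ap1 and Fancd2 of homologous recombination and crosslink repair (4.50 and 4.48).

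Of 58 tested mitosis and spindle genes 57 rose and none fell, with the highest median of the lists, 4.60. Esco2, which acetylates cohesin so that sister chromatids stay together, had 48.3, 47.5, 71.5 and 79.6 CPM in cycling cells, against 0.147, 1.51, 0.295 and 0.604 CPM in resting cells (log2 fold change 6.93 ± 0.39, edgeR adjusted p = 1.82e-05). In resting cells of the rhIL-7-hyFc 10 mg/kg library it was near zero, and the resting level of buffer was higher. Nusap1, a spindle microtubule protein, had 139.9, 121, 136 and 124 CPM in cycling cells, against 1.05, 4.08, 1.46 and 1.44 CPM in resting cells (log2 fold change 6.18 ± 0.30, edgeR adjusted p = 1.23e-05). Birc5, or survivin, of the chromosomal passenger complex, had 437, 369.9, 471 and 417 CPM in cycling cells, against 6.85, 24.7, 17.4 and 10.1 CPM in resting cells (log2 fold change 4.95 ± 0.31, edgeR adjusted p = 2.95e-05). The member that did not pass was Pttg1, or securin, with 141, 191, 119 and 148 CPM in cycling cells, against 102, 193, 134 and 147 CPM in resting cells (log2 fold change 0.03 ± 0.08, edgeR adjusted p = 0.756). Its resting level was about as high as its cycling level, and between 1 cycling and 1 resting cell per clonotype it was lower in cycling cells (-0.28, edgeR adjusted p = 0.0159).

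Of 29 tested cyclins, kinases and cell cycle transcription factors 25 rose and 1 fell (median 2.59). Ccna2, the cyclin of S phase and G2, had 248, 254, 224 and 214 CPM in cycling cells, against 0.901, 8.45, 2.92 and 2.10 CPM in resting cells (log2 fold change 6.30 ± 0.42, edgeR adjusted p = 3.87e-05). Cdk1, the kinase of mitosis, had 145, 181, 168 and 178 CPM in cycling cells, against 1.78, 8.45, 4.55 and 5.77 CPM in resting cells (log2 fold change 5.14 ± 0.26, edgeR adjusted p = 1.3e-05). Ccnb1, its mitotic cyclin, had 70.7, 92.0, 76.3 and 62.9 CPM in cycling cells, against 1.09, 5.44, 2.97 and 2.60 CPM in resting cells (log2 fold change 4.75 ± 0.24, edgeR adjusted p = 1.4e-05). Within experiment 1 the libraries differed less, by ratio, in cycling than in resting cells for these 3 genes as for Rrm2. The higher resting level was that of buffer. The member that fell was Ccnd2, a G1 cyclin, with 119.8, 116, 86.0 and 91.1 CPM in cycling cells, against 199.8, 212, 151 and 176 CPM in resting cells (log2 fold change -0.88 ± 0.05, edgeR adjusted p = 1.84e-05). Ccnd3, the other D-type cyclin of T cells, had a log2 fold change of 0.02 and passed no threshold (edgeR adjusted p = 0.742). Within the middle range of the cycling cells' depth Ccnd3 was higher in cycling cells (0.15, edgeR adjusted p = 0.0346).

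The promoter elements of these lists are shown because the members moved together. In the 250 bases before the start site (RefSeq, GRCm38.p6, both strands), the CHR core TTTGAA was found in 44.4% of 27 matched chromatin and condensin promoters, 28.6% of 21 cyclin and kinase promoters, 26.0% of 50 mitosis promoters and 10.5% of 38 replication promoters, against 16.3% of all 27025 promoters. The CCAAT box was in 68.0% of mitosis, 66.7% of chromatin, 61.9% of cyclin and 60.5% of replication promoters, against 34.5% of all. The E2F core TTTNNCGC was in 33.3% of cyclin, 26.3% of replication, 22.2% of chromatin and 14.0% of mitosis promoters, against 4.39% of all. A CHR core and a CCAAT box together were in 40.7% of chromatin, 28.6% of cyclin, 22.0% of mitosis and 7.89% of replication promoters. Among all promoters this share was 5.73%. Of 22 matched promoters of brakes and quiescence genes, 9.09% held a CHR core, 40.9% a CCAAT box and 9.09% an E2F core. Both a CHR core and a CCAAT box were in 0% of them. The promoters printed are those of Clspn and Nusap1, the replication and mitosis genes with the highest fold change among well expressed members with an entry, and of Btg1, the well expressed brake that fell furthest; Klf3, at a lower level, fell further. Capitals mark a CCAAT box, which reads ATTGG on the printed strand; no other searched motif is in these windows.
Clspn, chr4:126556730-126556979, plus strand: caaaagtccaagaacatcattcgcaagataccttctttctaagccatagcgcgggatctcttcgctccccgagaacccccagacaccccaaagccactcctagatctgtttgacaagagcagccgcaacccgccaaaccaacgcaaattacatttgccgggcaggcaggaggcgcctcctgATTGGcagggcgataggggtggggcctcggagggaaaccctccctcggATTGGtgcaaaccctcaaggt
Nusap1, chr2:119618048-119618297, plus strand: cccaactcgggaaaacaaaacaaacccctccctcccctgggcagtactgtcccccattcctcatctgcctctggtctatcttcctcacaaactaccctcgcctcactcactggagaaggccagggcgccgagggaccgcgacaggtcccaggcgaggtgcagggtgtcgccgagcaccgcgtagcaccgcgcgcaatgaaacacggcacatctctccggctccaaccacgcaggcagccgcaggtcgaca
Btg1, chr10:96616751-96617000, plus strand: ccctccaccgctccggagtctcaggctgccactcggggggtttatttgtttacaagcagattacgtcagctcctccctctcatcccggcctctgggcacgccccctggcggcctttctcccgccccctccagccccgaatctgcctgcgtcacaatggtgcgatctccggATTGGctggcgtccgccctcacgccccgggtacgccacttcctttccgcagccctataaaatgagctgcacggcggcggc
The Clspn window holds 2 CCAAT boxes, the Btg1 window 1 and the Nusap1 window none, so the box is found before a gene that fell as well as one that rose.

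**Figure D2:**
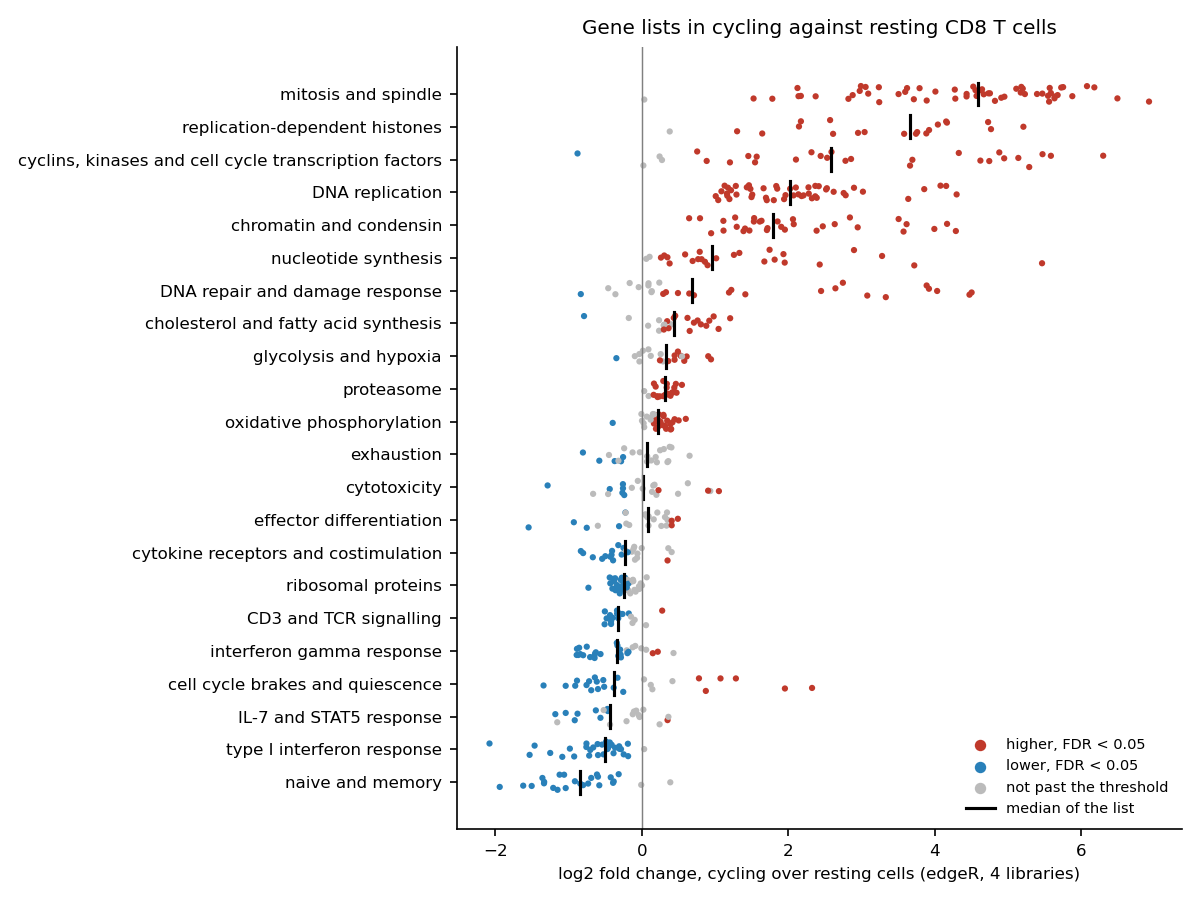
Log2 fold change of cycling over resting cells (x axis) for every tested gene of 22 lists (rows, 1 point a gene; the bar is the list median), from the edgeR fit over 4 libraries. Mitosis genes lie furthest right (median 4.60), followed by histone genes (3.66), and the naive and memory list lies left of 0 (-0.84).

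Brakes and quiescence genes moved in both directions: of 25 tested, 15 fell and 6 rose (median -0.38), beside 22.5% lower and 23.8% higher among all genes. Btg1, an antiproliferative gene of quiescent T cells, had 430.4, 267, 403 and 389.6 CPM in cycling cells, against 781, 519.9, 800.4 and 889.9 CPM in resting cells (log2 fold change -1.04 ± 0.06, edgeR adjusted p = 1.83e-05). Cdkn1b, or p27, which holds resting cells out of S phase, had 34.0, 29.7, 64.7 and 63.4 CPM in cycling cells, against 54.2, 47.0, 87.6 and 100.4 CPM in resting cells (log2 fold change -0.64 ± 0.07, edgeR adjusted p = 0.000446). Every library had the lower level in its cycling cells for both. Klf3, a Kruppel-like repressor, had 24.0, 3.91, 30.9 and 23.7 CPM in cycling cells, against 56.5, 19.4, 47.0 and 71.0 CPM in resting cells (log2 fold change -1.34 ± 0.22, edgeR adjusted p = 0.00261). The 6 that rose were Cdkn2a, Cdkn2c, Rbl1, Cdkn1a, Rb1 and Cdkn2d, all of them inhibitors of cyclin-dependent kinases or pocket proteins. Cdkn1a, or p21, had 107, 122, 93.9 and 136 CPM in cycling cells, against 29.0, 92.3, 35.2 and 80.6 CPM in resting cells (log2 fold change 1.07 ± 0.21, edgeR adjusted p = 0.00528). Cdkn2a, the locus of p16 and p19ARF, had 14.2, 13.2, 10.6 and 14.2 CPM in cycling cells, against 2.03, 2.77, 2.19 and 3.25 CPM in resting cells (log2 fold change 2.32). With 1 cycling and 1 resting cell per clonotype 8 brake genes fell and 7 rose. The largest fall among the named genes was that of Tcp11l2, which is outside this list and had 21.3, 5.78, 14.8 and 8.13 CPM in cycling cells, against 104, 48.0, 67.9 and 69.5 CPM in resting cells (log2 fold change -2.63 ± 0.16, edgeR adjusted p = 2.53e-05).

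The naive and memory list lay lower in cycling cells: of 25 tested, 23 fell and none rose (median -0.84). Tcf7, the transcription factor TCF-1 of naive, memory and stem-like cells, had 86.6, 13.1, 28.0 and 60.3 CPM in cycling cells, against 160.0, 48.6, 70.0 and 140.3 CPM in resting cells (log2 fold change -1.33 ± 0.12, edgeR adjusted p = 0.000175). Within each experiment the rhIL-7-hyFc-alone library had the higher Tcf7 level in cycling and in resting cells. Il7r, the IL-7 receptor alpha chain, had 109, 111, 136 and 155 CPM in cycling cells, against 183, 161, 266 and 267 CPM in resting cells (log2 fold change -0.80 ± 0.07, edgeR adjusted p = 0.000149). Bcl2, the survival factor that IL-7 signals maintain, had 133, 91.9, 72.4 and 87.3 CPM in cycling cells, against 234, 186, 169 and 168 CPM in resting cells (log2 fold change -1.04 ± 0.06, edgeR adjusted p = 1.7e-05). In each experiment both cycling levels of Bcl2 lay below both resting levels. S1pr1, the receptor for egress into blood, and Il6ra, an IL-6 receptor chain, had log2 fold changes of -1.34 and -1.51. Between 1 cycling and 1 resting cell of the same clonotype 8 of the 14 that could be tested fell (median -0.34), and within the middle range of the cycling cells' depth 15 of 25 fell and 1 rose (median -0.34). Tcf7 did not pass within clonotypes (-0.69, edgeR adjusted p = 0.0518).

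Interferon response genes were lower too. Of 32 tested type I interferon response genes 31 fell and none rose (median -0.51). Slfn5, a Schlafen gene induced by interferon, had 30.6, 12.3, 16.5 and 25.5 CPM in cycling cells, against 111, 64.8, 70.4 and 92.8 CPM in resting cells (log2 fold change -2.08 ± 0.09, edgeR adjusted p = 6.54e-06). Ifit1, an RNA-binding antiviral protein, had 189, 78.9, 107 and 92.4 CPM in cycling cells, against 449, 231, 258 and 289.9 CPM in resting cells (log2 fold change -1.47 ± 0.08, edgeR adjusted p = 1.45e-05). In experiment 1 the Ifit1 level was higher in rhIL-7-hyFc 10 mg/kg in both states. Ifit3 and Ifit3b are near-identical copies whose reads may be split, and they had log2 fold changes of -1.25 and -1.53. Of 29 interferon gamma response genes 21 fell and 2 rose (median -0.33), led by the GTPases Irgm2 and Gbp2 (-0.89 and -0.89). CD3 and TCR signalling genes also fell in 15 of 20 cases and rose in 1 (median -0.33), with Cd6, a T cell surface receptor, at -0.51. Of 20 early genes of TCR signals 4 fell, none rose and 16 did neither, beside 22.5% lower among all genes. Cd69, an early activation marker, was among those that fell (-0.80). Myc, which drives growth after activation, had 32.1, 37.8, 29.6 and 32.5 CPM in cycling cells, against 34.5, 32.8, 23.3 and 32.9 CPM in resting cells and passed no threshold (log2 fold change 0.07 ± 0.10, edgeR adjusted p = 0.609). Among cells with a Pdcd1 UMI Myc was higher in cycling cells (0.34, edgeR adjusted p = 0.0318).

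Exhaustion genes as a list did not separate the states: of 22 tested, 5 fell and none rose (median 0.07). Among all genes 22.5% were lower and 23.8% higher. Pdcd1, the inhibitory receptor PD-1, had 276, 542, 441 and 491 CPM in cycling cells, against 104, 512, 617 and 482 CPM in resting cells (log2 fold change 0.20 ± 0.25, edgeR adjusted p = 0.528). Its cycling level was above the resting level in rhIL-7-hyFc 10 mg/kg, about level in buffer and rhIL-7-hyFc 1.25 mg/kg, and below it in the combination. Havcr2, the inhibitory receptor TIM-3, had 46.2, 123, 74.1 and 58.3 CPM in cycling cells, against 14.3, 123, 83.5 and 57.7 CPM in resting cells (log2 fold change 0.30 ± 0.26, edgeR adjusted p = 0.384), with the same gap in rhIL-7-hyFc 10 mg/kg. Tox, a transcription factor of exhausted cells, had 29.5, 80.5, 36.1 and 43.7 CPM in cycling cells, against 18.8, 78.0, 48.7 and 36.7 CPM in resting cells (log2 fold change 0.07 ± 0.14, edgeR adjusted p = 0.688). The list's sign depended on which cells were set against each other. Among cells with a Pdcd1 UMI 16 members were lower and 1 higher in cycling cells (median -0.28). These cells were chosen by a raw Pdcd1 UMI, which favours deep cells, and the part of this choice was not tested. Between cells of the same clonotype 11 members were lower and 1 higher of 21 (median -0.37). Within clonotypes Pdcd1 was lower in cycling cells (log2 fold change -0.37, edgeR adjusted p = 9.83e-05), as was Havcr2 (-0.45, edgeR adjusted p = 0.000945).

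Killing genes were mixed. Of 21 tested cytotoxicity genes 6 fell and 3 rose (median 0.01), beside 22.5% lower and 23.8% higher among all genes. With 1 cell of each state per clonotype 13 fell and 2 rose of 19 (median -0.29). Gzmb, granzyme B, had 3681, 4813, 3361 and 2485 CPM in cycling cells, against 2424, 4705, 3054 and 2463 CPM in resting cells (log2 fold change 0.16 ± 0.08, edgeR adjusted p = 0.162). It passed no threshold, and within clonotypes it was lower in cycling cells (-0.40, edgeR adjusted p = 1.11e-05). Gzma, granzyme A, had 162, 45.9, 3851 and 196 CPM in cycling cells, against 210.4, 284, 2769.5 and 237 CPM in resting cells (log2 fold change -0.67 ± 0.45, edgeR adjusted p = 0.261), with the cycling level above the resting one in the combination library and below it in the other 3. Within clonotypes Gzma was lower in cycling cells (-0.995, edgeR adjusted p = 3.99e-07). Gzmc, a granzyme of strongly stimulated killer cells whose gene has near copies, had 1742, 1913, 1004 and 1860.2 CPM in cycling cells, against 406, 1423, 559 and 918 CPM in resting cells (log2 fold change 1.05 ± 0.22, edgeR adjusted p = 0.00698). Within the middle range of the cycling cells' depth Gzmc was lower in cycling cells (-0.45, edgeR adjusted p = 0.0124). Gzmm, granzyme M, had 64.0, 3.06, 13.0 and 14.8 CPM in cycling cells, against 159, 12.1, 16.1 and 48.9 CPM in resting cells (log2 fold change -1.29 ± 0.25, edgeR adjusted p = 0.00481). Of 24 effector differentiation genes 5 fell and 3 rose (median 0.08), beside the same shares of all genes. This sign also turned: within clonotypes 14 of 21 fell and none rose (median -0.27), and among cells with a Pdcd1 UMI 14 of 23 fell and none rose (median -0.20). Ccl5, a chemokine of memory and effector cells, had 795, 620.3, 3538 and 528 CPM in cycling cells, against 2888, 2393, 4147 and 2000.5 CPM in resting cells (log2 fold change -1.55 ± 0.30, edgeR adjusted p = 0.00536). The fall of Ccl5 was far smaller in the combination library than in the other 3. Ifng, interferon gamma, had 199, 433, 108 and 135 CPM in cycling cells, against 82.9, 330.4, 121 and 149 CPM in resting cells (log2 fold change 0.30 ± 0.20, edgeR adjusted p = 0.27).

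**Figure D3:**
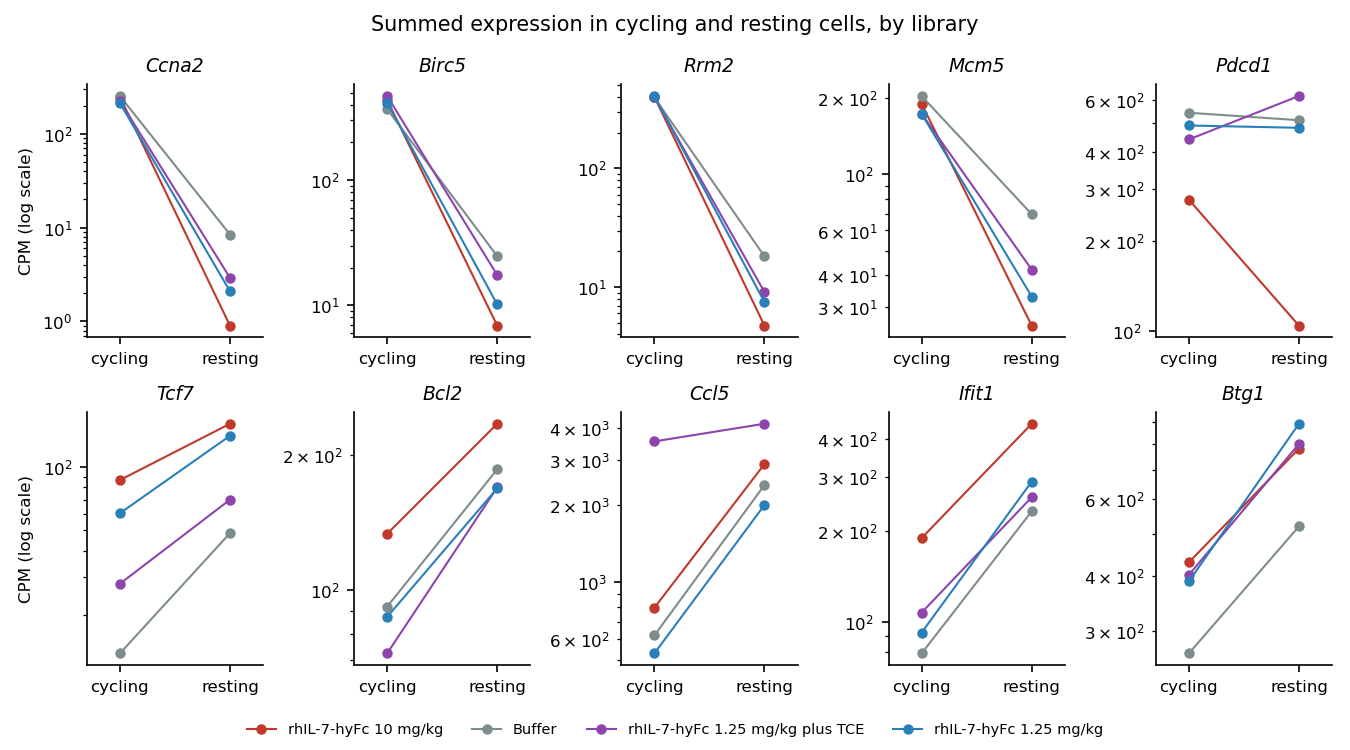
Level (CPM, log axis) of 10 genes in cycling (left) and resting (right) cells, 1 panel a gene and 1 line a library. The experiment 1 points of Ccna2, Birc5, Rrm2 and Mcm5 lie closer together in cycling than in resting cells. Tcf7, Bcl2, Btg1, Ifit1 and Ccl5 are lower in cycling cells in each library, and Pdcd1 is higher, level or lower depending on the library.

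Growth and energy lists moved in both directions, beside 23.8% higher and 22.5% lower among all genes, and several depended on depth. Of 22 tested genes of Myc, amino acid transport and growth 11 rose and 3 fell (median 0.29), and within the middle range of depth 8 rose and 2 fell (median 0.05). Of 32 tested genes of oxidative phosphorylation 22 rose and 1 fell (median 0.22), and of 22 proteasome genes 20 rose and none fell (median 0.31). With cells thinned to 3000 UMIs 3 and 5 of these rose, beside 1631 of 9991 among all genes tested. Most calls of both lists were thus not made in this setting. The states were called again on the thinned UMIs there, which left 1774 cycling cells over all libraries. The parts of depth and of this new call were not tested. Of 23 cholesterol and fatty acid synthesis genes 15 rose and 1 fell (median 0.44). Thinned to 3000 UMIs 8 rose and 2 fell, within the middle range of depth 5 rose and 3 fell (median 0.11), and within clonotypes 4 of 17 rose. Idi1, an isomerase of the mevalonate pathway, had 31.3, 50.9, 47.8 and 46.8 CPM in cycling cells, against 9.62, 25.3, 24.1 and 18.6 CPM in resting cells (log2 fold change 1.21 ± 0.10, edgeR adjusted p = 0.000104). Of 20 glycolysis and hypoxia genes 10 rose and 1 fell (median 0.32), and Tpi1, triosephosphate isomerase, had 508, 860.1, 469 and 714 CPM in cycling cells, against 143, 551, 333 and 399 CPM in resting cells (log2 fold change 0.91 ± 0.18, edgeR adjusted p = 0.00572). Within the middle range of the cycling cells' depth 1 glycolysis gene rose and 2 fell (median -0.02). Tfrc, the transferrin receptor that brings iron into dividing cells, had 45.4, 51.7, 28.1 and 50.4 CPM in cycling cells, against 15.9, 23.0, 14.9 and 21.9 CPM in resting cells (log2 fold change 1.16 ± 0.08, edgeR adjusted p = 3.58e-05). Of 42 ribosomal protein genes 26 fell and none rose (median -0.25), while 9 of 28 ribosome biogenesis genes rose and none fell (median 0.09). The ribosome biogenesis list turned round with depth: thinned to 3000 UMIs 3 rose and 6 fell (median -0.18), and within the middle range of depth 4 rose and 8 fell (median -0.15).

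Receptor and survival lists had more genes lower than higher in cycling cells, beside 22.5% lower among all genes. Of 24 cytokine receptor and costimulation genes 13 fell and 1 rose (median -0.23). Il2ra, the inducible IL-2 receptor chain, had 44.6, 67.1, 77.6 and 60.7 CPM in cycling cells, against 24.2, 61.6, 67.8 and 46.1 CPM in resting cells (log2 fold change 0.35 ± 0.10, edgeR adjusted p = 0.0244). Its call was lost among cells with a Pdcd1 UMI (0.08, edgeR adjusted p = 0.306) and within clonotypes (-0.14, edgeR adjusted p = 0.389), and within the middle range of depth it was lower in cycling cells (-0.36, edgeR adjusted p = 0.00298). Of 21 IL-7 and STAT5 response genes 8 fell and 1 rose (median -0.43), with the kinase gene Pim2 at -1.18. Of 20 apoptosis and survival genes 10 fell and 2 rose (median -0.17), among them the death receptor Fas (-0.96). Of 12 residency genes 3 fell, of 17 cytokine and chemokine genes 5 fell and 1 rose, and of 20 AP-1 and heat shock genes 5 fell and 3 rose.

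In experiment 1 the cycling cells of both treatments had replication and mitosis RNA within 1.5-fold but differed in naive, interferon, exhaustion and metabolic genes. Of 8891 measured genes, 571 (6.42%) were at least 1.5-fold higher and 976 (11%) at least 1.5-fold lower in rhIL-7-hyFc 10 mg/kg than in buffer cycling cells. Without the barcodes rich in Prl2c2, Rhox5 and Nupr1, 566 were higher and 716 lower. In resting cells 553 (6.33%) were higher and 1678 (19.2%) lower, of 8731. The split depended on the scaling: the median log2 ratio of all measured genes was -0.10 in cycling and -0.18 in resting cells, and scaled by TMM it was 0.00 and 0.07, with 744 genes higher and 707 lower in cycling cells and 1084 higher and 1035 lower in resting cells. None of 49 replication genes and none of 58 mitosis genes passed 1.5-fold in cycling cells (medians -0.11 and -0.05; scaled by TMM -0.01 and 0.06, with 1 mitosis gene higher), while in resting cells 30 of 43 and 19 of 24 were lower in rhIL-7-hyFc 10 mg/kg and 0 and 1 higher (medians -0.85 and -0.90). Scaled by TMM, 23 of 42 and 13 of 24 were lower in resting cells and 0 and 2 higher (medians -0.61 and -0.67). Rrm2 had 401 CPM in rhIL-7-hyFc 10 mg/kg cells and 396 CPM in buffer cells, and Ccna2 had 248 CPM in rhIL-7-hyFc 10 mg/kg cells and 254 CPM in buffer cells. Cells below the cut thus carried more cell cycle RNA in buffer. Cells above it, scaled by CPM, did not differ past 1.5-fold in any gene of the pair of lists. Both groups were made by the cut on raw Mki67 and Top2a UMIs. Resting cells had a median of 9347 UMIs in rhIL-7-hyFc 10 mg/kg and 7410 in buffer. The part of the cut and of depth in this pattern was not tested.

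Of 24 measured naive and memory genes 18 were higher and 1 lower in rhIL-7-hyFc 10 mg/kg cycling cells (median log2 ratio 1.15). Tcf7 had 86.5 CPM in rhIL-7-hyFc 10 mg/kg cells and 13.1 CPM in buffer cells (6.61-fold higher, 5.57 to 7.89). S1pr1 had 52.8 CPM in rhIL-7-hyFc 10 mg/kg cells and 6.03 CPM in buffer cells (8.74-fold higher, 6.82 to 11.4). Resting cells had the same direction, with Tcf7 at 159.8 CPM in rhIL-7-hyFc 10 mg/kg and 48.5 CPM in buffer. The highest ratio was that of Gzmm, with 64.0 CPM in rhIL-7-hyFc 10 mg/kg cells and 3.06 CPM in buffer cells (20.9-fold higher, 15.0 to 30.1). Nrarp, a Notch target, had 89.9 CPM in rhIL-7-hyFc 10 mg/kg cells and 12 CPM in buffer cells (7.50-fold higher, 6.28 to 9.02). Eomes, a transcription factor of memory and killer cells, had 51.6 CPM in rhIL-7-hyFc 10 mg/kg cells and 12.9 CPM in buffer cells (4.0-fold higher, 3.33 to 4.82). Satb1, a chromatin organiser of naive cells, had 175 CPM in rhIL-7-hyFc 10 mg/kg cells and 46.1 CPM in buffer cells (3.80-fold higher, 3.45 to 4.18). Also among the 10 highest were Nsg2, Ifit3b and the chemokine receptor Cxcr4, between 4.18-fold and 6.18-fold higher. With 1 cycling cell per clonotype the ratios were smaller: Tcf7 was 3.07-fold, S1pr1 4.14-fold, Gzmm 13.1-fold, Satb1 2.50-fold, Nsg2 2.65-fold and Cxcr4 2.78-fold higher, and the list stood at 17 of 23 higher and none lower (median 0.84). Markers of other lymphocytes lay on the same side: of 4 NK cell markers both measured ones were higher (Eomes, and Klrb1c with 7.16 CPM in rhIL-7-hyFc 10 mg/kg and 4.59 CPM in buffer), as was the B cell marker measured of 4 (Cd79b, 5.46 CPM in rhIL-7-hyFc 10 mg/kg and 1.53 CPM in buffer). Their part in the result was not tested.

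Type I interferon response genes were higher in 18 of 33 cases and lower in 1 (median 0.63). Ifit1 had 189 CPM in rhIL-7-hyFc 10 mg/kg cells and 78.9 CPM in buffer cells (2.39-fold higher, 2.21 to 2.59). Irf7, the transcription factor that amplifies the response, had 686 CPM in rhIL-7-hyFc 10 mg/kg cells and 340.2 CPM in buffer cells (2.02-fold higher, 1.94 to 2.10). Brake genes were higher in 8 of 23 cases and lower in 2 (median 0.23), with Btg1 at 430.1 CPM in rhIL-7-hyFc 10 mg/kg cells and 267 CPM in buffer cells (1.61-fold higher, 1.54 to 1.69). Il7r itself stood at 109 CPM in rhIL-7-hyFc 10 mg/kg and 111 CPM in buffer, and of 18 IL-7 and STAT5 response genes 2 were higher and 3 lower (median 0.00).

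Exhaustion genes were lower in 16 of 22 cases and higher in none (median -0.91). Pdcd1 had 276 CPM in rhIL-7-hyFc 10 mg/kg cells and 542 CPM in buffer cells (1.96-fold lower, 1.88 to 2.05). In resting cells the gap was wider, at 104 CPM in rhIL-7-hyFc 10 mg/kg and 511 CPM in buffer. Havcr2 had 46.2 CPM in rhIL-7-hyFc 10 mg/kg cells and 122 CPM in buffer cells (2.65-fold lower, 2.39 to 2.95). Tox had 29.5 CPM in rhIL-7-hyFc 10 mg/kg cells and 80.4 CPM in buffer cells (2.73-fold lower, 2.40 to 3.11). Effector differentiation genes were lower in 13 of 23 cases and higher in 2 (median -0.77), glycolysis and hypoxia genes lower in 10 of 19 and higher in none (median -0.56), and cholesterol and fatty acid synthesis genes lower in 14 of 23 and higher in 1 (median -0.68; with 1 cell per clonotype 4 lower and 2 higher, median -0.39). Bnip3, a hypoxia-induced mitochondrial gene, had 42.7 CPM in rhIL-7-hyFc 10 mg/kg cells and 122 CPM in buffer cells (2.86-fold lower, 2.57 to 3.19). Gzmb had 3678 CPM in rhIL-7-hyFc 10 mg/kg cells and 4809 CPM in buffer cells (1.31-fold lower, 1.29 to 1.32), under the 1.5-fold limit, and Ifng had 199 CPM in rhIL-7-hyFc 10 mg/kg cells and 433 CPM in buffer cells (2.18-fold lower, 2.07 to 2.29). Gzma had 162 CPM in rhIL-7-hyFc 10 mg/kg cells and 45.9 CPM in buffer cells (3.53-fold higher, 3.20 to 3.90), against the direction of its resting cells (210.2 CPM in rhIL-7-hyFc 10 mg/kg and 284 CPM in buffer).

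The lowest ratios of experiment 1 were held by genes of the barcodes rich in Prl2c2, Rhox5 and Nupr1 and of antigen-presenting cells. Prl2c2 (4 UMIs in rhIL-7-hyFc 10 mg/kg and 1117 in buffer), Nupr1 (3 UMIs in rhIL-7-hyFc 10 mg/kg) and Rhox5 (1 UMI) are the genes of the few barcodes described above. Ccl2, a monocyte chemokine, had 0.848 CPM in rhIL-7-hyFc 10 mg/kg cells and 74.2 CPM in buffer cells, Ctsl, a lysosomal protease, had 4.90 CPM in rhIL-7-hyFc 10 mg/kg cells and 56.4 CPM in buffer cells, and Ier3, a stress response gene, had 18.2 CPM in rhIL-7-hyFc 10 mg/kg cells and 171 CPM in buffer cells. Without these barcodes the buffer levels of Ccl2, Ctsl and Ier3 were 8.02, 7.30 and 46.5 CPM. MHC class II genes of antigen-presenting cells followed, with Cd74 at 19.8 CPM in rhIL-7-hyFc 10 mg/kg cells and 233 CPM in buffer cells (11.8-fold lower, 10.2 to 13.6), H2-Aa at 4.33 CPM in rhIL-7-hyFc 10 mg/kg and 68.3 CPM in buffer and H2-Eb1 at 5.18 CPM in rhIL-7-hyFc 10 mg/kg and 59.2 CPM in buffer. Resting cells had the same gap in Cd74, 27.1 CPM in rhIL-7-hyFc 10 mg/kg and 704 CPM in buffer. With 1 cycling cell per clonotype Cd74 was 3.75-fold, H2-Aa 3.37-fold and H2-Eb1 2.0-fold lower. The macrophage gene Apoe, which the gate did not use, stood at 2.26 CPM in rhIL-7-hyFc 10 mg/kg and 12 CPM in buffer. Of 12 macrophage and monocyte markers 3 were measured and 1 was lower (median -0.14), and of 8 mature dendritic cell markers 3 were measured, 2 lower and 1 higher (median -1.01). Their part in the other differences was not tested. Hspa1a, a heat shock gene, had 10.9 CPM in rhIL-7-hyFc 10 mg/kg and 57.1 CPM in buffer.

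**Figure D4:**
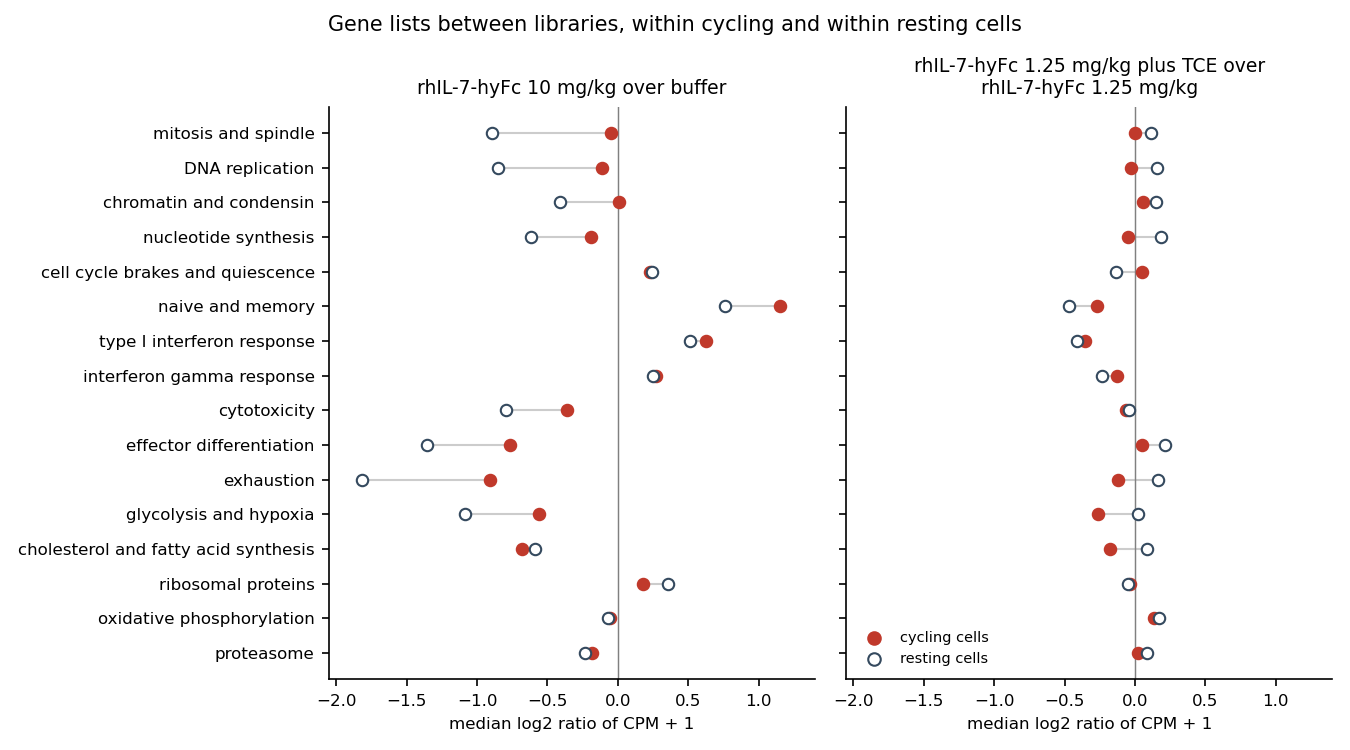
Median log2 ratio (x axis) of 16 gene lists between the libraries of each experiment, in cycling (filled) and resting (open) cells; 1 library a group, so no error is drawn. In experiment 1 the replication and mitosis medians of cycling cells lie at -0.11 and -0.05 and those of resting cells at -0.85 and -0.90, while naive and exhaustion lists lie on opposite sides of 0 in both states.

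In experiment 2 the combination's cycling cells again had replication and mitosis RNA within 1.5-fold, and had more Gzma and Ccl5. Of 9085 measured genes, 188 (2.07%) were at least 1.5-fold higher and 386 (4.25%) at least 1.5-fold lower than in rhIL-7-hyFc 1.25 mg/kg cycling cells. In resting cells 185 (2.08%) were higher and 347 (3.9%) lower, of 8890. None of 49 replication and none of 58 mitosis genes passed 1.5-fold (medians -0.03 and 0.00). In resting cells the medians of these lists were 0.16 and 0.12. Both groups were made by the cut on raw Mki67 and Top2a UMIs, and its part in this likeness was not tested. Rrm2 had 399 CPM in combination cells and 406 CPM in rhIL-7-hyFc 1.25 mg/kg cells, and Mcm5 had 173 CPM in combination cells and 173 CPM in rhIL-7-hyFc 1.25 mg/kg cells.

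Gzma had 3838 CPM in combination cells and 196 CPM in rhIL-7-hyFc 1.25 mg/kg cells (19.6-fold higher, 18.7 to 20.6), and its resting levels were 2759.7 CPM in combination and 236 CPM in rhIL-7-hyFc 1.25 mg/kg. Ccl5 had 3526 CPM in combination cells and 526 CPM in rhIL-7-hyFc 1.25 mg/kg cells (6.70-fold higher, 6.51 to 6.90). Gzmk, granzyme K, had 192 CPM in combination cells and 39.1 CPM in rhIL-7-hyFc 1.25 mg/kg cells (4.90-fold higher, 4.40 to 5.47). Ccl1, a chemokine of activated T cells, had 90.8 CPM in combination cells and 14.7 CPM in rhIL-7-hyFc 1.25 mg/kg cells (6.17-fold higher, 5.19 to 7.40). Rasgrp2, an activator of Rap1 and integrins, had 122 CPM in combination cells and 35.1 CPM in rhIL-7-hyFc 1.25 mg/kg cells (3.49-fold higher, 3.10 to 3.93), and Itga4, the alpha 4 integrin, had 83.3 CPM in combination cells and 30.8 CPM in rhIL-7-hyFc 1.25 mg/kg cells (2.70-fold higher, 2.38 to 3.08). The others of the 10 highest were Wdr95, Ass1, an arginine synthesis enzyme, the chemokine receptor Cxcr3 (69.9 CPM in combination and 36.0 CPM in rhIL-7-hyFc 1.25 mg/kg) and S1pr4. The effector list as a whole had 6 of 23 genes higher and 2 lower (median 0.05). Klrg1, a receptor of short-lived effector cells named after its values were seen, had 28.2 CPM in combination cells and 2.66 CPM in rhIL-7-hyFc 1.25 mg/kg cells (10.6-fold higher, 7.09 to 16.5).

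Naive and memory genes were lower in 10 of 23 cases and higher in 3 (median -0.27). Tcf7 had 27.9 CPM in combination cells and 60.1 CPM in rhIL-7-hyFc 1.25 mg/kg cells (2.16-fold lower, 1.91 to 2.44). Type I interferon response genes were lower in 8 of 32 cases and higher in none (median -0.35), and glycolysis and hypoxia genes lower in 7 of 20 and higher in none (median -0.26). Cxcl10, an interferon-induced chemokine, had 59.6 CPM in combination cells and 157 CPM in rhIL-7-hyFc 1.25 mg/kg cells (2.64-fold lower, 2.44 to 2.86). Xcl1, the chemokine that attracts cross-presenting dendritic cells, had 77.2 CPM in combination cells and 196 CPM in rhIL-7-hyFc 1.25 mg/kg cells (2.54-fold lower, 2.37 to 2.72). Gzmc had 1000.5 CPM in combination cells and 1854 CPM in rhIL-7-hyFc 1.25 mg/kg cells (1.85-fold lower, 1.81 to 1.89). Exhaustion genes were higher in 1 of 21 cases and lower in 2, and Pdcd1 had 439 CPM in combination cells and 489.5 CPM in rhIL-7-hyFc 1.25 mg/kg cells. Of the macrophage and monocyte markers 5 of 6 measured were lower and none higher. The genes that the gate limits were left out of this count. Among the lowest ratios were also genes of myeloid cells, Fcer1g (86.0 CPM in combination and 291 CPM in rhIL-7-hyFc 1.25 mg/kg), Tyrobp (35.8 CPM in combination and 86.0 CPM in rhIL-7-hyFc 1.25 mg/kg), Il1b (21.2 CPM in combination and 64.7 CPM in rhIL-7-hyFc 1.25 mg/kg) and Ccl2 (1.59 CPM in combination and 55.3 CPM in rhIL-7-hyFc 1.25 mg/kg). The others of the 10 lowest were Dapl1, Ifitm3, Igflr1 and Spp1. With 1 cycling cell per clonotype Il1b and Tyrobp were 1.13-fold and 1.38-fold lower, under the limit. Apoe and the neutrophil gene S100a9 moved with them (1.70 CPM in combination and 12.5 CPM in rhIL-7-hyFc 1.25 mg/kg and 0.878 CPM in combination and 34.6 CPM in rhIL-7-hyFc 1.25 mg/kg), and their part in the other differences was not tested.

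Seen from the states of the cells, with each cell thinned to 3000 UMIs, more cells with a Pdcd1 UMI were cycling than cells without one in 3 libraries. The share was 13.2% with and 3.64% without a Pdcd1 UMI in rhIL-7-hyFc 10 mg/kg, and 12.7% with and 7.60% without in buffer. It was 7.66% with and 8.93% without in the combination, and 8.83% with and 5.00% without in rhIL-7-hyFc 1.25 mg/kg. The combination alone had the lower share among cells with a Pdcd1 UMI. Conversely, 31.7%, 71.0%, 51.3% and 56.8% of cycling cells had a Pdcd1 UMI, against 10.2%, 53.6%, 54.8% and 40.8% of resting cells. In barcodes of other cell types without CD3 RNA it was found in 0 of 72, which allows a share of up to 4.17%, and in 5.61%, 17.2% and 6.61% in the other 3 libraries. The mean difference was 12.9 ± 11.1 percentage points (SD), higher in 3 of 4 libraries (exact two-sided paired permutation p = 0.25). Without thinning it was 21.4 points, higher in 4 of 4 libraries (exact permutation p = 0.125).

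Tcf7 showed the reverse. Cells with a Tcf7 UMI were cycling in 3.45%, 4.55%, 3.78% and 4.09% of cases, and cells without one in 5.53%, 11.4%, 9.01% and 7.67%. By share of cells, Tcf7 was detected in 22.5%, 4.61%, 6.53% and 15.4% of cycling cells, against 34.9%, 14.9%, 16.1% and 30.7% of resting cells. The mean difference was -11.9 ± 2.58 points, lower in 4 of 4 libraries (exact two-sided paired permutation p = 0.125). The share in barcodes of other cell types was 4.17%, 0.935%, 13.8% and 6.23%, so the cycling cells of the combination did not exceed it. A Gzmb UMI was found in 87.4%, 88.0%, 85.3% and 77.9% of cycling cells, against 76.6%, 85.5%, 73.8% and 69.5% of resting cells, a mean difference of 8.31 points, higher in 4 of 4 libraries (exact permutation p = 0.125). A Gzma UMI was found in 18.1%, 5.93%, 47.9% and 9.14% of cycling cells, against 18.5%, 14.9%, 30.0% and 13.1% of resting cells.

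Cells without a Pdcd1 UMI and without a UMI of Entpd1, the ectonucleotidase CD39 of tumour-reactive cells, were the larger part of the cycling cells of rhIL-7-hyFc 10 mg/kg. They made up 61.6%, 26.3%, 42.1% and 39.8% of the thinned cycling cells, against 83.9%, 39.3%, 39.7% and 55.8% of the resting cells. At 3000 UMIs a cell without a UMI may still express the gene. An Entpd1 UMI was found in 11.3%, 22.7%, 15.7% and 12.3% of cycling cells. In barcodes of other cell types without CD3 RNA it was found in 23.6%, 18.7%, 24.1% and 24.5%, so only the cycling cells of buffer exceeded that share.

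Clonotypes, sets of cells with the same alpha and beta CDR3 and V genes, were read from the TCR libraries. A productive beta chain was found in 93.5%, 79.9%, 69.0% and 66.8% of cycling cells, against 95.3%, 74.3%, 78.0% and 76.3% of resting cells. Of cells with a beta chain, 16.8%, 68.2%, 40.3% and 45.2% of cycling cells were in clonotypes of at least 5 cells, against 5.20%, 46.3%, 42.0% and 30.6% of resting cells. The mean difference was 11.6 ± 9.86 percentage points (SD), higher in 3 of 4 libraries (exact two-sided paired permutation p = 0.25). The combination was again the library without the difference. Barcodes with more than 1 beta or 2 alpha chains, a sign of doublets, made up 15.0%, 7.68%, 11.8% and 8.46% of cycling cells, against 8.18%, 6.96%, 9.14% and 7.46% of resting cells, and without them the mean difference was 13.2 points.

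Read the other way, 27.2% of the cells in clonotypes of at least 5 cells were cycling in rhIL-7-hyFc 10 mg/kg, against 8.37% of cells whose clonotype was seen once. The shares were 29.6% and 12.4% in buffer, 12.4% and 13.1% in the combination and 13.5% and 6.61% in rhIL-7-hyFc 1.25 mg/kg. Clonotypes of 2 to 4 cells stood at 28.6%, 22.4%, 14.0% and 16.2%. In the combination the shares of large and seen-once clonotypes lay close together, and the cells seen once were cycling at 13.1%, against 6.61% in rhIL-7-hyFc 1.25 mg/kg. The cycling cells with a TCR were spread over 460, 218, 684 and 352 clonotypes, and the 10 with most cycling cells held 8.22%, 36.5%, 19.0% and 16.7% of them.

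**Figure D5:**
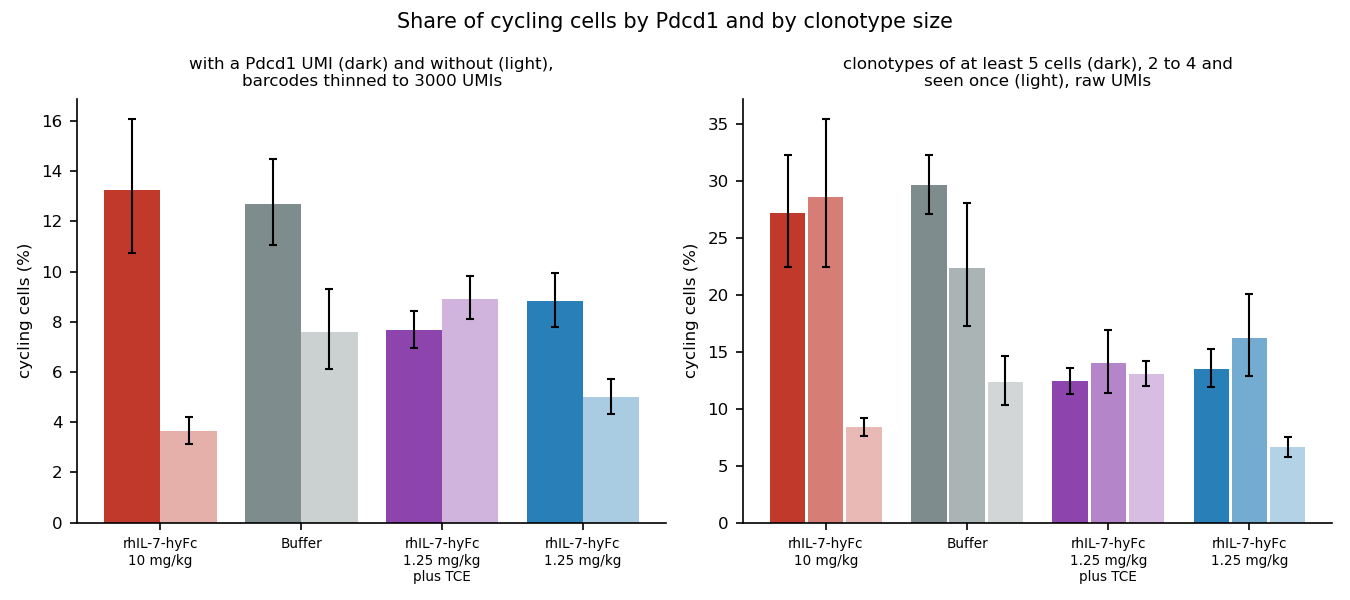
Share of cycling cells (%, y axis) in each library, left for cells with and without a Pdcd1 UMI after thinning to 3000 UMIs, right for cells in clonotypes of at least 5 cells, of 2 to 4 cells and seen once (unthinned); whiskers are 95% Clopper-Pearson intervals. The steps seen in 3 libraries are absent in the combination (7.66% with and 8.93% without a Pdcd1 UMI; 12.4% in large clonotypes and 13.1% in those seen once).

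The clonotype with most cycling cells in each library is given with its CDR3 nucleotides, since it shows which receptors the dividing cells carried; no base is in capitals because none was singled out. In rhIL-7-hyFc 10 mg/kg 9 of 24 cells of this clonotype were cycling (37.5%, 18.8 to 59.4), in buffer 32 of 109 (29.4%, 21.0 to 38.8), in the combination 50 of 475 (10.5%, 7.91 to 13.6) and in rhIL-7-hyFc 1.25 mg/kg 20 of 135 (14.8%, 9.29 to 21.9). The V and J genes lie in the TCR alpha locus on chromosome 14 and the beta locus on chromosome 6 (GRCm38); TRBV5 was used by both rhIL-7-hyFc-alone clonotypes. The coordinates given are those of the V gene, all on the plus strand.
rhIL-7-hyFc 10 mg/kg, TRAV14D-3-DV8 (chr14:53078452-53079045) and TRAJ7: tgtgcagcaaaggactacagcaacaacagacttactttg
rhIL-7-hyFc 10 mg/kg, TRBV5 (chr6:41062332-41062803) and TRBJ1-1: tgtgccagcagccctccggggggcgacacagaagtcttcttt
buffer, TRAV12D-2 (chr14:52915799-52916426) and TRAJ11: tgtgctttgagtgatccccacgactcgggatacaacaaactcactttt
buffer, TRBV13-1 (chr6:41116007-41116468) and TRBJ2-7: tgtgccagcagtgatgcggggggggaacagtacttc
combination, TRAV7N-6 (chr14:53324632-53325208) and TRAJ30: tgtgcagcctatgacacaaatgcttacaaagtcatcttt
combination, TRBV16 (chr6:41151740-41152230) and TRBJ2-5: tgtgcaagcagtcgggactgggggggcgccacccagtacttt
rhIL-7-hyFc 1.25 mg/kg, TRAV7D-2 (chr14:52683964-52684472) and TRAJ7: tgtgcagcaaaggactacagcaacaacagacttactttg
rhIL-7-hyFc 1.25 mg/kg, TRBV5 (chr6:41062332-41062803) and TRBJ2-1: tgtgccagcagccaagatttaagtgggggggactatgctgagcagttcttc
The alpha CDR3 of the rhIL-7-hyFc 10 mg/kg clonotype was identical to that of the rhIL-7-hyFc 1.25 mg/kg clonotype, with another V gene annotated and another beta chain. Of 13653 clonotypes, 12 were found in at least 2 libraries. Among clonotypes of at least 20 cells (2, 18, 43 and 29 by library), the cycling share ran from 15.0% to 37.5%, from no cell to 52.0%, from no cell to 27.7% and from 2.50% to 28.6%.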

How the data were processed

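Per the file headers, the deposited matrices of raw UMI counts came from Cell Ranger 4.0.0 for the 31053 genes of experiment 1 and from 6.1.2 for the 32285 genes of experiment 2. The submitters' processing notes name GRCm38 as the build. TCR contigs, with their own UMI counts, were deposited as tables. The sources used here do not say how barcodes were chosen upstream. Total counts per library ran from 47308214 to 118191371 UMIs. No rows without a gene were present, and no doublet caller was run; doublet-like TCR barcodes were left out in an alternative.

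The members and gene lists were chosen with earlier results of these data known. Raw counts were summed over cycling and over resting cells of each library for the 30406 genes shared by both experiments and tested with edgeR 4.0.16 (filterByExpr, TMM, glmQLFit, glmQLFTest, library as a block; R 4.3.3). The pairing comes from the library, since the cycling and resting cells of a library are the same preparation. The standard error is the log2 fold change divided by the square root of the F value. DESeq2 1.42.0 was an alternative. The 8 sums included none imputed. The procedure was tested on simulated data. Genes used by the gate or the cut got no test.

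Between libraries of an experiment, all genes of that experiment with at least 5 CPM in 1 of 2 sums were measured, and a CPM ratio of at least 1.5 was called; a pseudocount of 1 CPM entered the log2 ratios. Intervals are Clopper-Pearson for shares, conditional binomial for CPM ratios and normal on the log scale for ratios of shares (scipy 1.17.1, Python 3.11.15). Thinning drew 3000 UMIs per cell and left out shallower cells, which were 1.22%, 9.13%, 1.59% and 3.08% of cycling cells against 3.21%, 19.2%, 4.53% and 8.09% of resting cells. In the thinned gene tests, ratios between libraries and shares of cycling cells, the states were called again on the thinned UMIs. In the shares of cells with a UMI of a single gene, the calls on raw UMIs were kept. Clonotypes were counted over gated cells of a library.

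Named genes were a fixed set of cell cycle, state and killing genes, the 12 highest and 12 lowest fold changes among genes that passed, had at least 50 CPM and kept their direction in 4 libraries, the 10 highest and lowest ratios between libraries at 50 CPM or more, and the 3 members of a list with the largest changes; some genes that this rule picks are not reported here. Hmgb2, Ezh2, Ccnd2, Ccnd3, Btg1, Rbl1, Rb1, Cdkn2d, Irf7, Entpd1, Klrg1, Pttg1, Trac, Trbc2, Cd79b, Klrb1c, Apoe and S100a9 were named after their values were seen. Promoters and motif shares came from RefSeq. Alternatives changed the cut, the gate, depth, normalization, filters, clonotypes and libraries, and 5 of them were chosen after seeing the data.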

Additional observations from a re-analysis of the deposited data

Results flagged for a closer look

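In experiment 2 the difference between cycling and resting cells had opposite signs in the 2 libraries for 3 measures, which is why they are listed; 1 library stands for each group, so the difference between them was not tested. The share of cells in clonotypes of at least 5 cells was 1.69 percentage points lower in cycling than in resting cells of the combination (difference -1.69) and 14.6 points higher in rhIL-7-hyFc 1.25 mg/kg. The share of cells with a Pdcd1 UMI, thinned to 3000 UMIs, differed by -3.46 points in the combination and 16 points in rhIL-7-hyFc 1.25 mg/kg. The share of cells with a Gzma UMI differed by 17.8 points in the combination and -3.99 points in rhIL-7-hyFc 1.25 mg/kg. A Pdcd1 UMI was also found in 17.2% of the barcodes of other cell types in the combination, against 6.61% in rhIL-7-hyFc 1.25 mg/kg.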

How the results depend on the processing

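Of the comparisons of cycling with resting cells, the genes higher numbered 1231 with no replicate block, 1631 thinned to 3000 UMIs and 1195 with 1 cell of each state per clonotype, and the genes lower 266, 1416 and 925. The block is the library, which pairs its cycling and resting cells, and 23 of 72 named genes lost their call without it; the cause was not tested. Leaving out each library in turn gave 2010 to 2507 genes higher and 1853 to 2416 lower, and Il2ra (without either experiment 2 library) and S1pr1 (without rhIL-7-hyFc 1.25 mg/kg) lost their calls. The clonotype difference was 8.17 to 16 points, the Pdcd1 difference 9.99 to 18.3 points and the UMI difference 6748 to 7827 with 1 library left out.

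Pdcd1 chose the cells with a Pdcd1 UMI, so its value of -0.37 among them is a description. Log2 fold changes turned negative there for Havcr2 (-0.24) and Pttg1 (-0.16). They turned negative within clonotypes for Pdcd1 (-0.37), Havcr2 (-0.45), Gzmb (-0.40), Il2ra (-0.14) and Pttg1 (-0.28), and in the middle range of depth for Pdcd1 (-0.18), Havcr2 (-0.37), Gzmb (-0.36), Gzmc (-0.45) and Il2ra (-0.36). In experiment 1 the log2 ratio of Klrb1c turned to -0.55 thinned to 3000 UMIs and -0.41 with 1 cell per clonotype. Fas and Irgm2 lost their calls within clonotypes, Gzmm and Il6ra among cells with a Pdcd1 UMI, and S1pr1 and Il6ra in the middle range of depth. With cycling cells taken from 4 rule UMIs Il2ra lost its call (0.30, edgeR adjusted p = 0.112). Calls were gained by Myc among cells with a Pdcd1 UMI, Ccnd3 in the middle range of depth and Gzma within clonotypes. Of 1147 repeats over 72 named genes, 1073 kept direction and side of the threshold.

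The share ratio was 0.612 in experiment 1 and 1.15 in experiment 2 with 1 or more rule UMIs. In experiment 2 it was 1.08 thinned to 5000 UMIs, 1.81 with each clonotype once and 0.941 without the limit on macrophage UMIs, where its direction turned. Genes past 1.5-fold among cycling cells numbered 665 and 213 at 20 CPM or more and 3618 and 1636 after thinning in experiments 1 and 2, 2489 as a mean over cells in experiment 1 and 937 with 1 cell per clonotype in experiment 2. After thinning 952 genes were higher and 2666 lower in experiment 1, and 802 higher and 834 lower in experiment 2. Fewer UMIs per gene remain after thinning, and the cycling cells were called again. The part of counting error in the larger counts was not tested. With 1 library per treatment, no result between treatments has a replicate check, and shares of single genes at 3000 UMIs miss cells that express a gene at low level.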
